A study of Mus musculus with 9 samples.

Results

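Nonmuscle myosin II is built from 8 genes considered here: the essential light chains Myl6 and Myl6b, the regulatory light chains Myl9, Myl12a and Myl12b, and the heavy chains Myh9, Myh10 and Myh14. Their probe sets were taken as those to which the platform annotation gives exactly 1 symbol, either one of these names or an older form of it. Myl12a is annotated as 2900073G15Rik and Myl12b as Mylc2b. The rule found 205 probe sets, out of 1195555 on the array, which covers 22071 genes with such 1-symbol probe sets. Myl6 was chosen by its measured intensities, because one of its probe sets moved in opposite directions after the 2 siRNAs, so the Myl6 values describe the pattern that chose it and carry no test.

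Each myosin II molecule joins a pair of heavy chains, which hold the ATP-driven motor, with a pair of essential light chains that stiffen the lever arm and a pair of regulatory light chains. Phosphorylation of the regulatory light chains lets the molecules assemble into filaments, which pull on actin in stress fibres, in the cleavage furrow and in migrating cells. The Myl6 transcript is known to be spliced in alternative ways near its 3′ end, which gives a nonmuscle and a smooth muscle form of the same light chain. The targeted genes, Cugbp1 (current symbol Celf1) and Mbnl1, encode regulators of alternative splicing in muscle that bind RNA and often act in opposite directions on an exon.

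RNA came from C2C12 cells, an established mouse myoblast line, grown in DMEM with 10% fetal bovine serum. The 3 groups were control siRNA, Cugbp1 siRNA and Mbnl1 siRNA, with 3 arrays each and RNA taken 48 h after transfection. All 9 arrays share the line, the medium and a transfection, and both knockdowns share the same control arrays. How many siRNAs were used per target is not given in the labels, nor whether the replicates were transfected separately. The p-values therefore weigh a difference against array-to-array spread alone, and that spread may be purely technical.

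The arrays were alike in scale, with median intensities between 42.3 and 43.8. The mean log2 gene value of Celf1 was 10.13 ± 0.02 (SD, n = 3) with control siRNA, 8.67 ± 0.12 with Cugbp1 siRNA and 10.06 ± 0.06 with Mbnl1 siRNA. That of Mbnl1 was 11.45 ± 0.01, 11.50 ± 0.06 and 10.11 ± 0.07 in the same order. Each target fell under its own siRNA. The Celf1 values under Mbnl1 siRNA, 9.99, 10.10 and 10.08, also lay below the controls, at a change of -0.07 that did not pass (adjusted p = 0.345). Of 9 myoblast markers 8 were measured and mostly bright, and their mean level lay at 10.78 to 10.83 on the control arrays, 10.95 to 10.98 on the Cugbp1 siRNA arrays and 10.75 to 10.90 on the Mbnl1 siRNA arrays. Of 18 measured markers of other cell types 5 had most of their probe sets bright. The mean level over all 18 lay at 6.21 to 6.27, 6.02 to 6.10 and 6.04 to 6.14 in the same order of groups. The brightest were the macrophage marker Cd68 with 10 of 10 bright probe sets, the neuronal Tubb3 with 8 of 9, the epithelial Krt14 with 13 of 16 and Krt8 with 11 of 20, and the glial Olig2 with 5 of 8. The fat marker Adipoq had 0 of 6, the endothelial marker Kdr 1 of 35 and the blood marker Ptprc 5 of 53. Of the 14 that had a gene value, 0 were called higher (limma, Benjamini-Hochberg adjusted p below 0.05) and 9 lower after Cugbp1 siRNA, and 2 higher and 6 lower after Mbnl1 siRNA, beside 26.0% and 12.7%, and 26.9% and 14.6%, of all genes. Of the 8 myoblast markers 3 were higher and 0 lower after Cugbp1 siRNA, and 1 and 1 after Mbnl1 siRNA. The part of these marker differences in the results was not tested. In bulk RNA, fewer cells of a type and less RNA per cell cannot be told apart.

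A probe set was kept where its mean log2 intensity over all 9 arrays reached 7.00 (an intensity of 128), the 75th percentile of the array. Of the 205 myosin probe sets 163 were kept: 15 of 16 for Myl6, 3 of 9 for Myl6b, 8 of 10 for Myl9, 6 of 8 for Myl12a, 6 of 7 for Myl12b, 55 of 56 for Myh9, 46 of 56 for Myh10 and 24 of 43 for Myh14. The Myh14 probe sets 4710048 and 5241838 lay just inside the limit at 7.04 and 7.06, and Myh10 probe set 4408692 and Myh14 probe set 5469332 just outside it at 6.99 and 6.92. The gene value is the median polish of a gene's kept probe sets on the log2 scale. Levels of different genes or probe sets are not set against each other, since probes differ in brightness.

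The Myl6 gene value differed little between groups. It was 12.68, 12.62 and 12.63 on the control arrays, 12.65, 12.59 and 12.56 after Cugbp1 siRNA, and 12.55, 12.50 and 12.58 after Mbnl1 siRNA. The control and Cugbp1 siRNA arrays overlapped, and all 3 Mbnl1 siRNA arrays lay below all 3 control arrays. The group means were 12.64 ± 0.03, 12.60 ± 0.05 and 12.54 ± 0.04 (SD, n = 3), which places the changes against control at -0.04 and -0.10. Over all 12646 genes the median change was 0.05 after Cugbp1 siRNA and 0.04 after Mbnl1 siRNA.

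One Myl6 probe set, 5558222, left this pattern. Its intensity was 3290, 3119 and 3185 on the control arrays, 4975, 4484 and 4294 after Cugbp1 siRNA, and 2086, 1828 and 1982 after Mbnl1 siRNA. The 3 groups did not overlap: every Cugbp1 siRNA array was brighter and every Mbnl1 siRNA array dimmer than every control array. On the log2 scale the means were 11.64 ± 0.04, 12.16 ± 0.11 and 10.94 ± 0.10, so the change was 0.52 after Cugbp1 siRNA and -0.70 after Mbnl1 siRNA. The siRNA groups stood 1.22 apart, a 2.33-fold difference in intensity.

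The difference remained when the level of the whole gene was taken off each array. Relative to the Myl6 gene value on the same array, probe set 5558222 stood at -0.99, -1.01 and -0.99 with control siRNA, -0.37, -0.46 and -0.49 with Cugbp1 siRNA, and -1.52, -1.66 and -1.63 with Mbnl1 siRNA. Set to 100% for the control mean on the linear scale, its relative level was 147% ± 6.44 (SD, n = 3, range 142 to 155%) after Cugbp1 siRNA and 65.7% ± 3.51 (range 63.0 to 69.7%) after Mbnl1 siRNA. The control arrays spread by 0.676% (SD). The departures from the gene were 0.56 and -0.61 on the log2 scale, and the siRNA groups differed by 1.17, or 2.24-fold. Leaving the probe set out of the gene value gave the same 0.56 and -0.61, a check added after the data were seen.

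The other 14 kept Myl6 probe sets stayed close together. Their changes ran from -0.22 to 0.13 (median -0.05) after Cugbp1 siRNA and from -0.29 to 0.10 (median -0.12) after Mbnl1 siRNA. Between the siRNAs they differed by -0.05 to 0.11, and the widest of these, probe set 5435054, changed by -0.02 and -0.13. The lowest changes under both siRNAs belonged to probe set 4880439, at -0.22 and -0.29. Probe sets 5098065 (-0.14 and -0.22), 4956832 (-0.07 and -0.16), 4324412 (-0.07 and -0.14), 4572091 (-0.04 and -0.12), 4507584 (-0.10 and -0.12), 4744069 (-0.13 and -0.13) and 5142616 (-0.08 and -0.08) were lower under both. Probe sets 5080764 (0.13 and 0.10), 4650521 (0.09 and 0.07), 4476272 (0.02 and 0.07) and 4713304 (0.02 and 0.02) were higher under both.

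Signs were opposite for 2 of the 15 Myl6 probe sets, and the other one, 5005985, changed by only 0.00 and -0.06. The higher values of 5080764, 4650521 and 4476272 go with control array 2, where these 3 probe sets read 12.22, 12.34 and 12.46. The probe set left out for low signal, 4987404, had log2 means of 6.62 ± 0.05, 6.59 ± 0.28 and 6.31 ± 0.21. The files do not place any probe set on an exon of Myl6, so whether 5558222 reads the alternative exon was not tested.

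**Figure D1:**
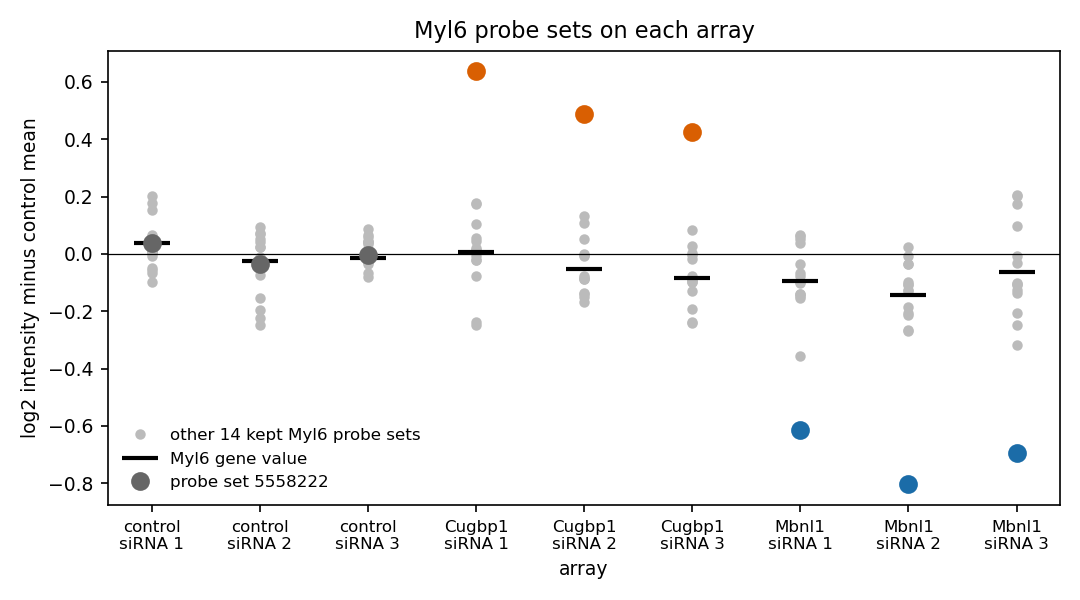
Log2 intensity minus the control mean (vertical axis) of the 15 kept Myl6 probe sets on each of the 9 arrays (horizontal axis). Large points are probe set 5558222, small grey points the other 14, and black bars the Myl6 gene value. On all 3 Cugbp1 siRNA arrays the large point lies above the rest and on all 3 Mbnl1 siRNA arrays below them.

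**Figure D2:**
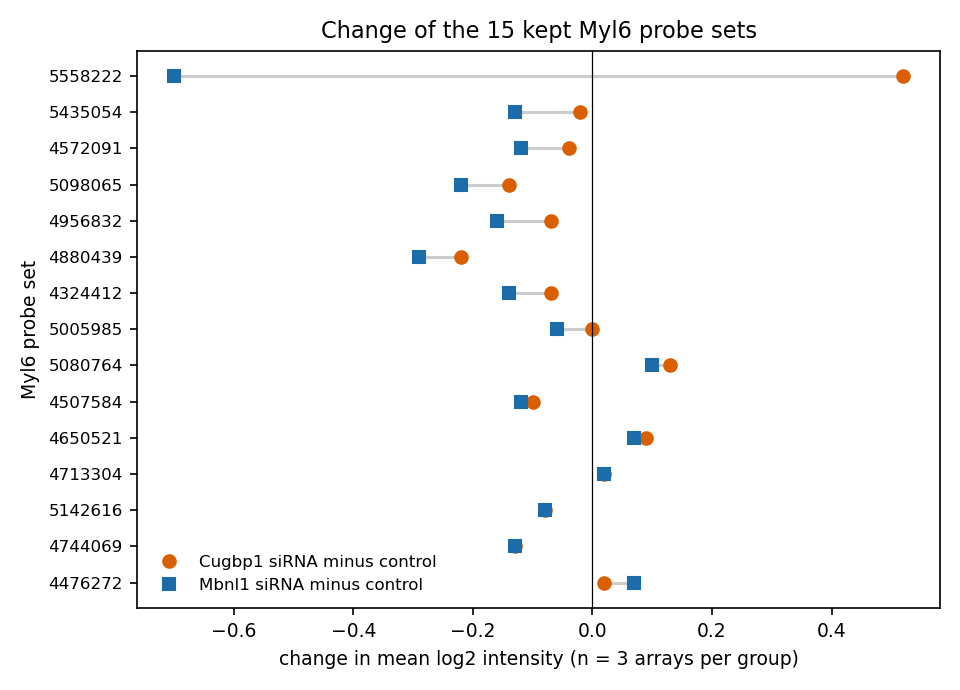
Change in mean log2 intensity against control (horizontal axis, 3 arrays per group) for each kept Myl6 probe set (vertical axis, by ID, sorted by the difference between the siRNAs). Circles stand for Cugbp1 siRNA and squares for Mbnl1 siRNA. Probe set 5558222 spans 0.52 to -0.70, while no other probe set differs by more than 0.11 between the siRNAs.

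Among the 158713 probe sets of genes with at least 4 kept probe sets, 32752 had departures from their gene of opposite sign after the 2 siRNAs. Only 3 of them departed at least as far as 5558222 in both directions, counting 5558222 itself. The others were Mbnl1 probe set 5068117 (-0.67 after Cugbp1 siRNA and 0.74 after Mbnl1 siRNA), which belongs to a targeted gene, and Mia2 probe set 5596927 (1.09 and -0.65). A difference between the siRNAs of at least 1.17 was seen for 20 probe sets (0.0126%). These counts place the probe set that the choice of Myl6 rests on and are no test of it.

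The probe sets of other genes whose relative level followed that of 5558222 most closely over the 9 arrays belonged to Ptpn3 (5243500, Pearson r = 0.985), Fn1 (4619128, r = 0.981), Slc44a1 (5011592, r = 0.968), Erlin2 (4828655, r = 0.967) and Sfxn3 (4933755, r = 0.965). Of 158698 probe sets compared, 15 had an r over 0.95. The points are 9 arrays in 3 groups, so these r values largely repeat the order of the group means. The Fn1 probe set, from the fibronectin gene, had departures of 0.12 and -0.15, far smaller than those of Erlin2 at 0.49 and -0.48. Ptpn3, a protein tyrosine phosphatase, had 0.30 and -0.24, the choline transporter gene Slc44a1 0.49 and -0.29, and Sfxn3 0.22 and -0.34.

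The Myl6 gene value itself was followed most closely by Clic1 (r = 0.971), Camk2a (r = 0.962), Dctpp1 (r = 0.959), Unc13d (r = 0.928) and Mmp9 (r = 0.927) among 12638 genes, of which 3 had an r over 0.95. All of these were, like Myl6, lower after Mbnl1 siRNA than after Cugbp1 siRNA. Clic1, a chloride intracellular channel gene, changed by -0.06 and -0.12, and Mmp9, a secreted metalloproteinase gene, by -0.18 and -0.25.

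The second essential light chain, Myl6b, lies next to Myl6 in the RefSeq gene order. Its gene value was 7.53, 7.40 and 7.64 with control siRNA, 7.68, 7.60 and 7.63 with Cugbp1 siRNA, and 7.76, 7.54 and 7.55 with Mbnl1 siRNA. The groups overlapped, and neither the change of 0.12 (95% interval -0.05 to 0.28, adjusted p = 0.231) nor that of 0.09 (-0.07 to 0.26, adjusted p = 0.333) passed the limma test at an adjusted p of 0.05. With 3 kept probe sets Myl6b rests on the fewest measurements of the 8 genes and could not be tested for departures. Without control array 3 its change after Cugbp1 siRNA was 0.26 (adjusted p = 0.0459), which passes.

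At the gene level 0 of the 7 members other than Myl6 were called after Cugbp1 siRNA and 1 after Mbnl1 siRNA, and 0 differed between the siRNAs. Over all 12646 genes the percentage called was 38.7, 41.5 and 9.34 in these 3 comparisons. Arrays did not overlap for 2 of the 7 after Cugbp1 siRNA, 2 after Mbnl1 siRNA and 3 between the siRNAs, beside 48.8%, 57.5% and 29.5% of all genes. The median change of the 7 was -0.08 after Cugbp1 siRNA and 0.01 after Mbnl1 siRNA.

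These calls move with the scaling. When arrays were centred on the median of the kept 1-symbol probe sets, an alternative added after the data were seen, the median change of all genes went from 0.05 to -0.04 and from 0.04 to -0.06. The split of called genes then went from 3293 higher and 1600 lower to 1366 and 3206 after Cugbp1 siRNA, and from 3397 and 1848 to 1716 and 3918 after Mbnl1 siRNA. Centring on the median of all probe sets gave 4398 and 1230, and 4232 and 1433. Repeating the quantile normalisation gave 2600 and 1831, and 2795 and 2282. A change near 0.1 in a single gene value is therefore within what the scaling can add or remove. Departures of a probe set from its own gene are hardly touched by centring, since both values shift together on an array.

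**Figure D3:**
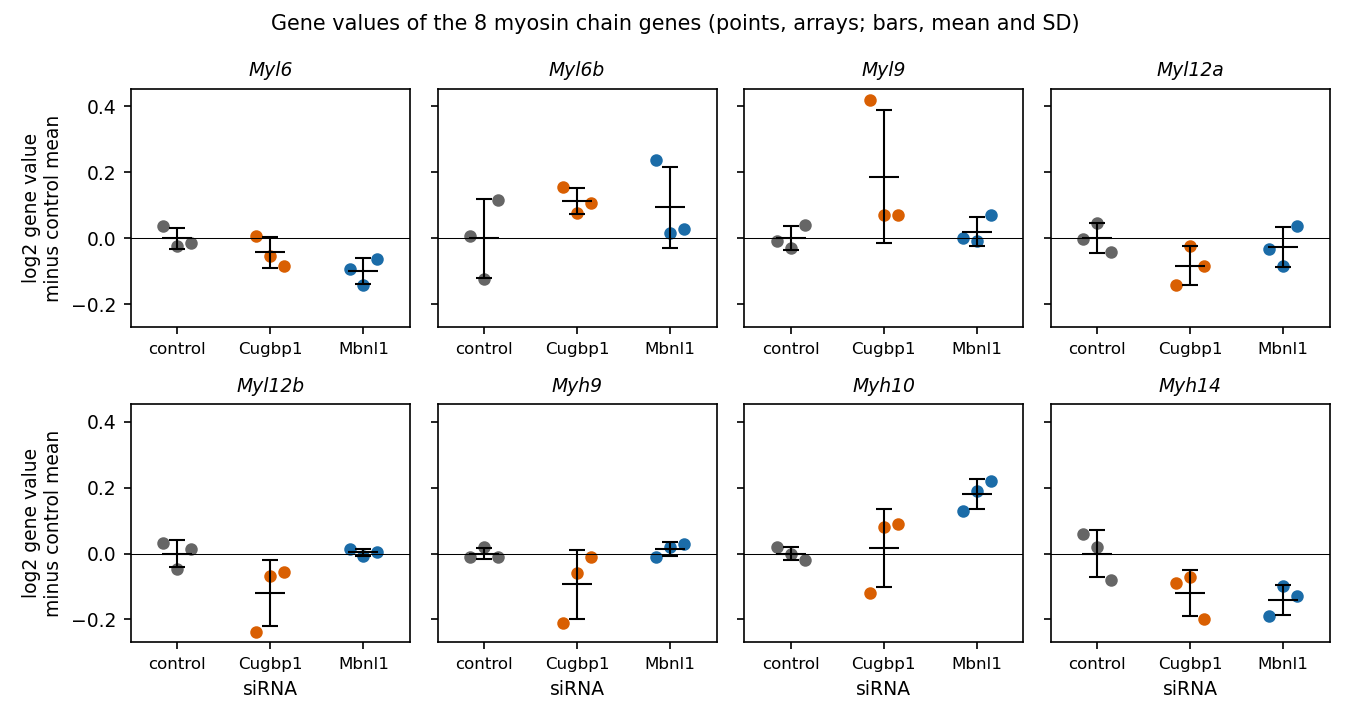
Gene values of the 8 myosin chain genes minus their control mean on the log2 scale (vertical axis) under control, Cugbp1 and Mbnl1 siRNA (horizontal axis). Points are the 3 arrays of a group, and bars give mean and SD. Myh10 is higher on all 3 Mbnl1 siRNA arrays, at a mean of 0.18, and for Myl9, Myl12b, Myh9 and Myh10 the first Cugbp1 siRNA array lies apart from the other two.

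None of the regulatory light chains, Myl9, Myl12a and Myl12b, passed the gene-level test under either siRNA. Myl9, a regulatory light chain known from smooth muscle and nonmuscle cells, read 8.56, 8.54 and 8.61 with control siRNA, 8.99, 8.64 and 8.64 with Cugbp1 siRNA, and 8.57, 8.56 and 8.64 with Mbnl1 siRNA. All 3 Cugbp1 siRNA arrays lay above the controls, but array 1 carried most of the difference of 0.19 (95% interval 0.00 to 0.37, adjusted p = 0.0985). Without that array the change was 0.07. After Mbnl1 siRNA the change was 0.02 (-0.17 to 0.20, adjusted p = 0.867).

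Myl12a and Myl12b are near-identical regulatory light chain genes that lie next to each other, so probes may read both. Myl12a read 10.94, 10.99 and 10.90 with control siRNA, 10.80, 10.92 and 10.86 with Cugbp1 siRNA, and 10.91, 10.86 and 10.98 with Mbnl1 siRNA, with overlapping groups. Its changes were -0.08 (95% interval -0.19 to 0.03, adjusted p = 0.218) and -0.02 (-0.13 to 0.09, adjusted p = 0.739). Myl12b read 12.27, 12.19 and 12.25 with control siRNA, 12, 12.17 and 12.18 with Cugbp1 siRNA, and 12.25, 12.23 and 12.24 with Mbnl1 siRNA. The Cugbp1 siRNA arrays of Myl12b all lay below the controls, at a change of -0.12 (95% interval -0.24 to 0.00, adjusted p = 0.0961), and the Mbnl1 siRNA arrays within their range, at 0.00 (-0.11 to 0.12, adjusted p = 0.961).

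Centred on the kept 1-symbol probe sets, the Cugbp1 siRNA changes were -0.18 for Myl12a (adjusted p = 0.00926) and -0.23 for Myl12b (adjusted p = 0.00365), which pass, and 0.09 for Myl9 (adjusted p = 0.50). After Mbnl1 siRNA Myl12a was then at -0.13 (adjusted p = 0.0280) and Myl12b at -0.11 (adjusted p = 0.0572). Centring on the median of all probe sets gave 0.22 for Myl9 after Cugbp1 siRNA (adjusted p = 0.0459). The direction of Myl9 after Mbnl1 siRNA turned to -0.09 under the first of these centrings, and that of Myl12a to 0.01 under the second.

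Among the heavy chains, Myh10 rose after Mbnl1 siRNA. Myh10 encodes the heavy chain of myosin IIB, an isoform that holds tension on actin for long and is prominent in brain. Its gene value was 9.44, 9.42 and 9.40 with control siRNA, 9.30, 9.50 and 9.51 with Cugbp1 siRNA, and 9.55, 9.61 and 9.64 with Mbnl1 siRNA. Every Mbnl1 siRNA array lay above every other array, while the Cugbp1 siRNA arrays fell on both sides of the controls. The rise was 0.18 (SE 0.06, 95% interval 0.05 to 0.31), or 1.13-fold, with an adjusted p of 0.0326.

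After Cugbp1 siRNA the change of Myh10 was 0.02 (-0.11 to 0.15, adjusted p = 0.842). The difference between the siRNAs, -0.16 (-0.29 to -0.03, adjusted p = 0.118), did not pass, so the response was not shown to differ between them. The call after Mbnl1 siRNA was lost without control array 3 (0.17, adjusted p = 0.0844), Mbnl1 siRNA array 2 (0.18, adjusted p = 0.0830) or Mbnl1 siRNA array 3 (0.19, adjusted p = 0.0685), and over all 9 such fits the change lay between 0.17 and 0.21. It was also lost with the arrays centred on the kept 1-symbol probe sets (0.07, adjusted p = 0.250), with the quantile normalisation repeated (0.14, adjusted p = 0.0772) and without a filter on low signal (0.17, adjusted p = 0.0591).

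The single Myh10 probe sets were called at a rate near that of all probe sets. After Mbnl1 siRNA 40 of its 46 kept probe sets had higher means, 23 without overlap of the arrays, and 11 were called higher and 0 lower, with a median change of 0.21. Of all 298889 kept probe sets 22.0% were called, 13.4% upward and 8.57% downward, and the arrays of 41.3% did not overlap, so the Myh10 counts are not read as a result of their own. The largest changes were those of 4862698 (0.91, adjusted p = 0.0062), 4402427 (0.61, adjusted p = 0.00155) and 4394465 (0.60). The count of 11 fell to 5, 7 and 5 without control arrays 1, 2 and 3, and to 7, 4 and 3 without Mbnl1 siRNA arrays 1, 2 and 3. With arrays centred on the kept 1-symbol probe sets it was 4, and with arrays centred on the median of all probe sets 16. Over all kept probe sets the number called was 65630 with all 9 arrays and 35216 to 75111 without 1 array. Genes called higher and lower numbered 1716 and 3918 with the first centring and 4232 and 1433 with the second.

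After Cugbp1 siRNA 2 Myh10 probe sets were called, both higher, and the median change was 0.01. Of all kept probe sets 16.0% were called in this comparison, 9.38% upward and 6.58% downward. They were 4402427 (0.43, adjusted p = 0.0157) and 4862698 (0.73, adjusted p = 0.0253), which are also among those called after Mbnl1 siRNA against the same control arrays. Probe set 4862698 read 7.58, 6.65 and 6.83 on the control arrays, so control array 1 overlapped the Cugbp1 siRNA arrays at 7.88, 7.56 and 7.81, and the Mbnl1 siRNA arrays stood at 7.85, 7.90 and 8.02.

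Probe set 4402427 also departed from its gene under both siRNAs. Relative to the Myh10 gene value it stood at 0.11, -0.17 and 0.00 with control siRNA, 0.44, 0.37 and 0.38 with Cugbp1 siRNA, and 0.30, 0.41 and 0.52 with Mbnl1 siRNA. The siRNA arrays all lay above the control arrays and overlapped each other. The departure was 0.42 (SE 0.09, adjusted p = 0.0335) and 0.43 (adjusted p = 0.0212). Across the 9 fits without 1 array the first call was kept in 2, those without control array 1 or Mbnl1 siRNA array 1, with departures from 0.33 to 0.47. The second was lost without control array 2 (0.33, adjusted p = 0.0670), control array 3 (0.44, adjusted p = 0.0534), Mbnl1 siRNA array 2 (0.42, adjusted p = 0.0673) or Mbnl1 siRNA array 3 (0.34, adjusted p = 0.119).

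Myh9, the heavy chain of the widely expressed myosin IIA, did not pass the test as a gene under either siRNA. It read 11.78, 11.81 and 11.78 with control siRNA, 11.58, 11.73 and 11.78 with Cugbp1 siRNA, and 11.78, 11.81 and 11.82 with Mbnl1 siRNA. The groups overlapped, with Cugbp1 siRNA array 1 the lowest of the 9. The changes were -0.09 (95% interval -0.21 to 0.03, adjusted p = 0.185) and 0.01 (-0.10 to 0.13, adjusted p = 0.845). With arrays centred on the kept 1-symbol probe sets they were -0.19 (adjusted p = 0.00944), which passes, and -0.10 (adjusted p = 0.0843).

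Of the 55 kept Myh9 probe sets 42 had lower means after Cugbp1 siRNA, 16 of them without overlap. Another 3 were higher without overlap, beside 33.2% of all probe sets that did not overlap in either direction. The test called 6 lower and 0 higher: 4328065 (-0.41, adjusted p = 0.00296), 5175537 (-0.34), 4891031 (-0.30), 4551472 (-0.27), 4541081 (-0.23) and 4854975 (-0.17). Of all kept probe sets 16.0% were called, 6.58% downward and 9.38% upward, so the Myh9 count is not read as a result of its own. The count of 6 fell to 1 without Cugbp1 siRNA array 1 and to 1 without control array 3. It lay between 3 and 5 without any of the other arrays. Over all kept probe sets the number called was 47689 with all 9 arrays and 23714 to 46159 without 1 array. After Mbnl1 siRNA 28 Myh9 probe sets had higher and 26 lower means, 6 and 5 of them without overlap, and 0 were called. In this comparison 22.0% of all kept probe sets were called, and the arrays of 41.3% did not overlap.

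Probe set 4328065 fell further than the rest of Myh9. Relative to its gene it stood at 0.55, 0.48 and 0.51 with control siRNA, 0.15, 0.21 and 0.25 with Cugbp1 siRNA, and 0.27, 0.36 and 0.23 with Mbnl1 siRNA. Both siRNA groups lay below the controls, by 0.31 after Cugbp1 siRNA and by 0.23 after Mbnl1 siRNA on the log2 scale. The departure was -0.31 (SE 0.07, adjusted p = 0.0402) for Cugbp1 siRNA and -0.23 (adjusted p = 0.0840) for Mbnl1 siRNA. The call was lost in 9 of 9 fits without 1 array, although the departure kept between -0.32 and -0.28, with adjusted p between 0.0572 and 0.0957.

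Myh14, the heavy chain of myosin IIC, was low on all arrays relative to the signal filter, with 19 of 43 probe sets left out. It read 7.59, 7.55 and 7.45 with control siRNA, 7.44, 7.46 and 7.33 with Cugbp1 siRNA, and 7.34, 7.43 and 7.40 with Mbnl1 siRNA. The Mbnl1 siRNA arrays all lay below the controls, and the Cugbp1 siRNA arrays overlapped them. The changes of -0.12 (95% interval -0.24 to 0.00, adjusted p = 0.0952) and -0.14 (-0.26 to -0.02, adjusted p = 0.0604) did not pass. With arrays centred on the kept 1-symbol probe sets they were -0.23 (adjusted p = 0.00925) and -0.26 (adjusted p = 0.00401), and both passed.

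Leaving out an array also moved Myh14 past the threshold. After Mbnl1 siRNA this held without control array 2 (-0.17, adjusted p = 0.0390), control array 3 (-0.19, adjusted p = 0.0288), or Cugbp1 siRNA array 1 (-0.19, adjusted p = 0.0161), 2 (-0.17, adjusted p = 0.0307) or 3 (-0.16, adjusted p = 0.0197). After Cugbp1 siRNA it held without Cugbp1 siRNA array 1 (-0.17, adjusted p = 0.0438). Its filter is reset in each such fit, so the probe sets behind the gene value can change.

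Of the 24 kept Myh14 probe sets 21 had lower means after Mbnl1 siRNA and 3 were called lower: 5487970 (-0.65, adjusted p = 0.00665), 4741036 (-0.61, adjusted p = 0.0156) and 5545773 (-0.52, adjusted p = 0.0172). After Cugbp1 siRNA 1 was called, 5487970 (-0.51, adjusted p = 0.0308). Of all kept probe sets 22.0% were called after Mbnl1 siRNA, 8.57% downward, and 16.0% after Cugbp1 siRNA, 6.58% downward. The Myh14 counts are therefore not read as a result of their own. Probe set 4741036 departed from the gene as well, standing at 0.03, 0.15 and 0.24 with control siRNA, -0.27, -0.18 and -0.13 with Cugbp1 siRNA, and -0.19, -0.23 and -0.57 with Mbnl1 siRNA. Both siRNA groups lay below the controls. The departure was -0.47 (SE 0.11, adjusted p = 0.0316) after Mbnl1 siRNA and -0.33 (adjusted p = 0.125) after Cugbp1 siRNA. The first was kept in 2 of the 9 fits without 1 array, those without control array 1 or Cugbp1 siRNA array 3, and without Mbnl1 siRNA array 3 it was -0.33 (adjusted p = 0.129).

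Single probe sets of the regulatory light chains were called after Cugbp1 siRNA. Myl12a probe set 5560406 fell by 0.62 on the log2 scale (SE 0.14, adjusted p = 0.00815). It read 9.68, 10.16 and 9.81 with control siRNA, 9.10, 9.49 and 9.19 with Cugbp1 siRNA, and 9.38, 9.74 and 9.67 with Mbnl1 siRNA. The Cugbp1 siRNA arrays lay below all controls, and the Mbnl1 siRNA arrays overlapped both groups. A Myl12a probe set was called lower in every fit without 1 array and under each scaling tried. Myl9 probe set 4639813 rose by 0.48 (adjusted p = 0.0429) with overlapping arrays. A Myl9 probe set was called higher without control array 2 or Cugbp1 siRNA array 2, and none without any of the other arrays. These refits counted called probe sets per gene and did not record which ones they were. All 6 Myl12b probe sets had lower means, from -0.29 to -0.09, and 0 were called. Beside the 16.0% of all kept probe sets called in this comparison, 6.58% downward and 9.38% upward, these counts are not read as a result of their own.

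**Figure D4:**
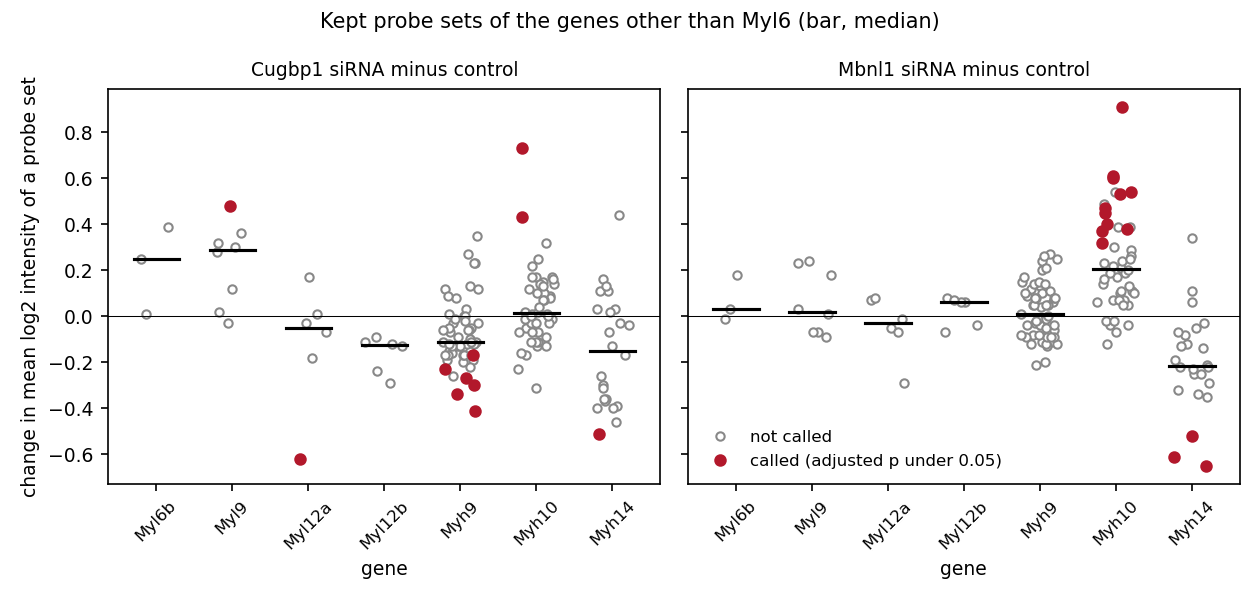
Change in mean log2 intensity (vertical axis) of each kept probe set of the 7 genes other than Myl6 (horizontal axis) after Cugbp1 siRNA, left, and Mbnl1 siRNA, right. Filled points passed an adjusted p of 0.05 and bars are medians. Myh10 has 11 filled points above 0 on the right, and Myh9 6 below 0 on the left.

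Taken over the 148 kept probe sets outside Myl6, 11 (7.4%) were called after Cugbp1 siRNA, 3 higher and 8 lower, and 14 (9.5%) after Mbnl1 siRNA, 11 higher and 3 lower. Both shares lie below those of all kept probe sets, 16.0% and 22.0%. Between the siRNAs 0 were called, against 0.924% of all. Of 145 probe sets tested for departure from their gene, 2 (1.38%) were called after each siRNA, beside 3.75% and 6.98% of all 158713 tested, and 0 between the siRNAs, beside 0.0277%. The largest difference between the siRNAs among these 145 was 0.41.

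The proteins that switch myosin II on and off were described through a list of 35 regulators, of which 32 were measured. After Cugbp1 siRNA 10 were higher and 3 lower, and after Mbnl1 siRNA 9 and 3, against 26.0% and 12.7%, and 26.9% and 14.6%, of all genes called higher and lower. With arrays centred on the kept 1-symbol probe sets the counts were 2 and 7, and 5 and 8. Over all 12646 genes they were then 1366 and 3206, and 1716 and 3918, so the balance of directions depends on the scaling. The list medians, 0.05 and 0.04, equal those of all genes. Between the siRNAs 1 was higher and 2 lower, beside 4.27% and 5.07%.

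The widest regulator changes were those of small GTPases. Rnd3, a small GTPase known to loosen stress fibres, rose by 0.70 after Cugbp1 siRNA (adjusted p = 0.000123) and 0.54 after Mbnl1 siRNA (adjusted p = 0.000265). Rhob, a small GTPase that acts on actin, rose by 0.58 (adjusted p = 0.000157) and 0.57 (adjusted p = 7.45e-05). Both kept their calls in every fit without 1 array and under each scaling tried. Svil, the gene of supervillin, which binds myosin II and actin, rose by 0.19 (adjusted p = 0.0224) and 0.32 (adjusted p = 0.00162). The first call was lost with the centring on 1-symbol probe sets (0.09, adjusted p = 0.133) and without control array 3 (0.14), Cugbp1 siRNA array 2 (0.19) or Cugbp1 siRNA array 3 (0.18). Limch1, an activator of myosin II, fell by 0.38 after Mbnl1 siRNA (adjusted p = 0.0452), a call lost in 2 of the 5 fits without 1 array that kept the gene, those without Mbnl1 siRNA array 1 (-0.43) or 2 (-0.22), and was at -0.17 after Cugbp1 siRNA (adjusted p = 0.317).

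Of 28 actin and stress fibre partners 27 were measured. After Cugbp1 siRNA 2 were higher and 3 lower, and after Mbnl1 siRNA 3 and 2, with medians of 0.01 and 0.00. Of all genes 26.0% were called higher and 12.7% lower after Cugbp1 siRNA, and 26.9% and 14.6% after Mbnl1 siRNA. With the 1-symbol centring the counts were 1 and 11, and 2 and 11, beside 1366 and 3206, and 1716 and 3918, of all 12646 genes. Diaph2, a formin that elongates actin filaments, rose by 0.43 (adjusted p = 0.000194) and 0.55 (adjusted p = 2.69e-05). The calponin Cnn2 fell by 0.30 under both (adjusted p = 0.000956 and 0.000717), and these calls held without any 1 array. Its relative Cnn1 was at -0.26 (adjusted p = 0.0392) and -0.33 (adjusted p = 0.0126). The first call was lost without control array 2 (-0.22) or 3 (-0.16), Cugbp1 siRNA array 2 (-0.23) or 3 (-0.25), or Mbnl1 siRNA array 3 (-0.25), and with arrays centred on the median of all probe sets (-0.22, adjusted p = 0.0634), and the second without control array 3 (-0.27).

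Tagln, the actin-binding protein transgelin, fell by 0.31 after Cugbp1 siRNA (adjusted p = 0.00171), was at -0.10 after Mbnl1 siRNA (adjusted p = 0.15), and was the one partner that differed between the siRNAs (-0.22, adjusted p = 0.0275). That difference was lost without control array 3, Cugbp1 siRNA array 2, Mbnl1 siRNA array 1 or Mbnl1 siRNA array 3, at -0.20 in each fit. Between the siRNAs 9.34% of all genes were called, 5.07% lower, so 1 call among the 27 partners is not read as a result about the list. After Mbnl1 siRNA Tagln was called too when centred on the 1-symbol probe sets (-0.21, adjusted p = 0.00255) and with the quantile normalisation repeated (-0.14, adjusted p = 0.0488).

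Muscle and smooth muscle myosin chains, relatives of the members, were measured for 13 of 18 genes. After Cugbp1 siRNA 3 were higher and 4 lower, and after Mbnl1 siRNA 1 and 3, with medians of -0.09 and -0.08. The shares of all genes called higher and lower were 26.0% and 12.7% after Cugbp1 siRNA, and 26.9% and 14.6% after Mbnl1 siRNA. With the 1-symbol centring the counts were 0 and 8, and 1 and 9, beside 1366 and 3206, and 1716 and 3918, of all 12646 genes. The fast essential light chain Myl1 rose by 0.31 (adjusted p = 0.0208) and 0.38 (adjusted p = 0.00692). The first of these calls was lost with that centring (0.20, adjusted p = 0.0990) and without control array 2 (0.25) or Cugbp1 siRNA array 2 (0.27).

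Myh3, the embryonic heavy chain, rose by 0.36 after Cugbp1 siRNA (adjusted p = 0.0215) and was at 0.24 after Mbnl1 siRNA (adjusted p = 0.0844). Its call was lost without control array 1 (0.34), 2 (0.34) or 3 (0.36), and with the 1-symbol centring (0.25, adjusted p = 0.0773). Myh13 fell by 0.22 (adjusted p = 0.00966) and 0.27 (adjusted p = 0.00273), and Myh15 by 0.27 (adjusted p = 0.00902) and 0.18 (adjusted p = 0.0424). The last was lost in 6 of the 9 fits without 1 array, those without any 1 control array (-0.16, -0.19 and -0.20), Cugbp1 siRNA array 2 (-0.16), Mbnl1 siRNA array 1 (-0.16) or Mbnl1 siRNA array 3 (-0.12), and with arrays centred on the median of all probe sets (-0.14, adjusted p = 0.0752).

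The unconventional myosins, single-molecule motors that move cargo and membranes along actin, were measured for 19 of 22 genes. After Cugbp1 siRNA 3 were higher and 7 lower, and after Mbnl1 siRNA 5 and 7, with a median of -0.07 in both, beside 26.0% higher and 12.7% lower, and 26.9% and 14.6%, of all genes. With the 1-symbol centring the counts were 2 and 10, and 4 and 10, beside 1366 and 3206, and 1716 and 3918, of all 12646 genes.

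Myo6, which walks toward the minus end of actin, rose by 0.35 (adjusted p = 0.0102) and 0.64 (adjusted p = 0.000437). The first call was lost with the 1-symbol centring (0.24, adjusted p = 0.0556) and without control array 1 (0.28) or 3 (0.22). Myo1c fell by 0.36 (adjusted p = 0.000340) and 0.40 (adjusted p = 0.000106), in every fit without 1 array. Myo3b fell by 0.58 after Mbnl1 siRNA (adjusted p = 0.0147), lost without Mbnl1 siRNA array 2 (-0.53) or 3 (-0.42), and was at -0.30 after Cugbp1 siRNA (adjusted p = 0.146).

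Myo9a, a myosin that carries a GTPase-activating domain, was the one unconventional myosin that differed between the siRNAs. It read 8.52, 8.57 and 8.57 with control siRNA, 8.45, 8.68 and 8.69 with Cugbp1 siRNA, and 8.93, 9.06 and 8.98 with Mbnl1 siRNA. The Mbnl1 siRNA arrays lay above all others. It rose by 0.44 after Mbnl1 siRNA (adjusted p = 0.000820), was at 0.05 after Cugbp1 siRNA (adjusted p = 0.555), and the siRNAs differed by -0.38 (adjusted p = 0.00589), a call lost without Mbnl1 siRNA array 2 (-0.33, adjusted p = 0.0557). Between the siRNAs 9.34% of all genes were called, 5.07% lower, so 1 call among the 19 unconventional myosins is not read as a result about the list.

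**Figure D5:**
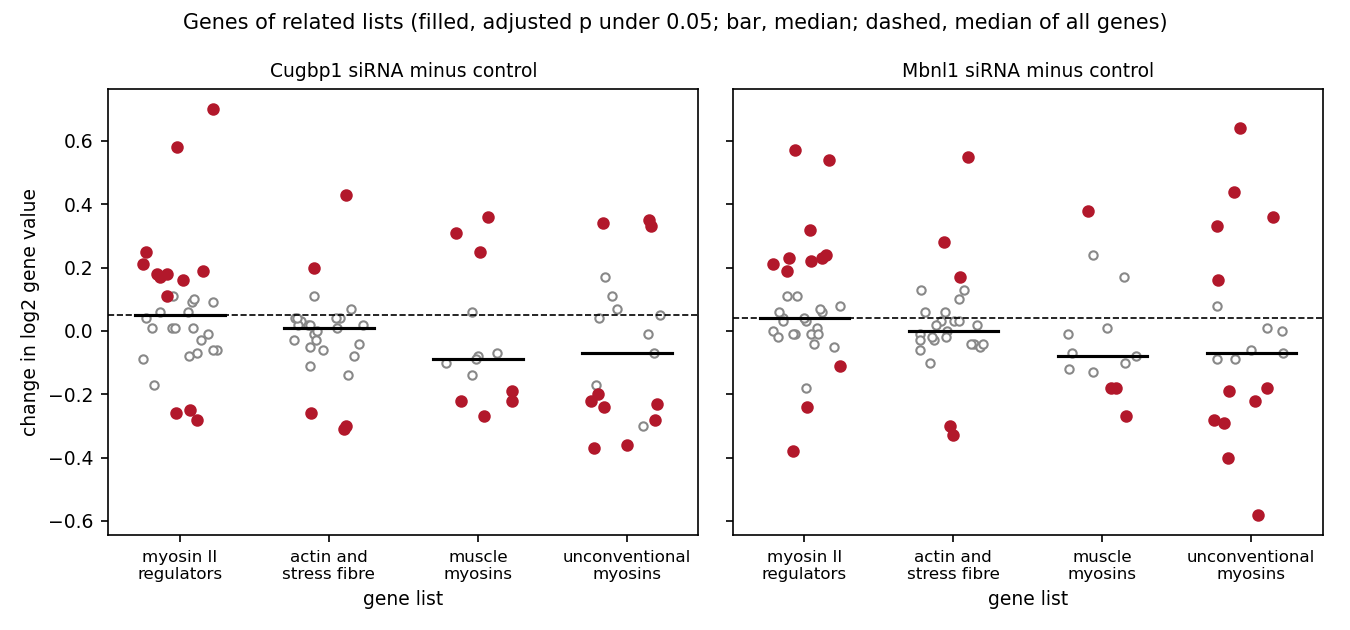
Change in log2 gene value against control (vertical axis) of the genes in 4 related lists (horizontal axis) after Cugbp1 siRNA, left, and Mbnl1 siRNA, right. Filled points passed an adjusted p of 0.05, bars are list medians and the dashed line is the median of all genes. The regulator median lies on the dashed line, and the medians of both other myosin lists below it, at -0.09 to -0.07.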

How the data were processed

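The authors deposited 1 table of probe set intensities on a linear scale for 9 mouse exon arrays, which per the submitters' processing notes come from RMA, run in Affymetrix Expression Console, with mm9 as the genome build. Versions and background settings of that step are not known from the labels. Groups and replicate numbers came from the sample titles. Intensities were turned into log2 values and probe sets below the 75th percentile of the mean were left out. Symbols came from the platform annotation, updated through a RefSeq gene table (4213 of 22264 updated and 63 kept as given). Genes with at least 3 kept probe sets were summarised by median polish. Departures are a probe set minus its gene value on the same array, for genes with at least 4 kept probe sets. All were fitted in limma 3.58.1 (R 4.3.3) over all 9 arrays, with Benjamini-Hochberg adjustment over everything tested and a threshold of 0.05. The scripts were tested on simulated data. The number of arrays limits the precision.

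Every member was named. Also named were called departures, the 4 called genes with the widest change in each related list, the 5 genes and probe sets most like Myl6, and both targets. Members, lists and tests were chosen with earlier results of these data known. Other filters, scalings, summaries and fits, and fits without each array, were run as alternatives.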

Additional observations from a re-analysis of the deposited data

How the results depend on the processing

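The departure of Myl6 probe set 5558222 kept its direction and size under all alternatives run, lying at 0.52 to 0.59, -0.64 to -0.57 and 1.13 to 1.2 (Cugbp1 siRNA against control, Mbnl1 siRNA against control, and between the siRNAs) when arrays were left out one at a time. Its level changes were then 0.46 to 0.56, -0.75 to -0.65 and 1.16 to 1.27, and 0.41 and -0.82 with arrays centred on the kept 1-symbol probe sets. All of these refits use the values by which Myl6 was chosen, so they describe how the processing moves them and are no test of the pattern.

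The gene calls of the members changed with the processing. The members called after Cugbp1 siRNA numbered 1 with a 50th percentile filter, 1 with median centring, 4 with the gene value as a mean, 1 with a trend in the variance model and 4 with the 1-symbol centring. After Mbnl1 siRNA they numbered 0 without a filter, 2 with the mean and 2 with the 1-symbol centring, and between the siRNAs 1 with the mean. In the same order all genes called higher and lower after Cugbp1 siRNA numbered 3075 and 1923, 4398 and 1230, 3986 and 1870, 3464 and 1575, and 1366 and 3206. After Mbnl1 siRNA they numbered 3317 and 1964, 4129 and 2207, and 1716 and 3918, and between the siRNAs 636 and 786. The member counts are therefore not read as a result of their own. Leaving out arrays gave 0 to 1, 0 to 2 and 0 members. Myl9 after Mbnl1 siRNA turned to -0.01 at the 50th percentile, -0.01 without a filter, -0.02 with quantile normalisation repeated and -0.09 with the 1-symbol centring. Myh10 after Cugbp1 siRNA turned to -0.01 and -0.08 under the last 2 of these, Myh9 after Mbnl1 siRNA to -0.10 under the last, and Myl12a after Mbnl1 siRNA to 0.01 with median centring. Between the siRNAs Myh14 turned to -0.01 at the 50th percentile and -0.02 without a filter. Ranges without 1 array that crossed 0 were -0.04 to 0.02 for Myl12a, -0.01 to 0.02 for Myh9 and -0.01 to 0.05 for Myl9 after Mbnl1 siRNA, -0.02 to 0.02 for Myl12b there, -0.01 to 0.10 for Myh10 after Cugbp1 siRNA, and -0.02 to 0.12 for Myl6b between the siRNAs. The cause of these changes was not tested.

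Departing probe sets of members numbered 0 (50th percentile), 0 (no filter), 0 (only the 2 groups compared) and 5 (diffSplice, limma's test of unequal change within a gene) after Cugbp1 siRNA, and 1, 0 and 1 under the first 3 after Mbnl1 siRNA. Without 1 array they numbered 0 to 3, 0 to 5 and 0. With the settings used above, 3.75% of all probe sets tested departed after Cugbp1 siRNA and 6.98% after Mbnl1 siRNA. The member counts are not read as a result of their own. The difference between the siRNAs turned to 0.02 for Myh10 probe set 4402427 with diffSplice, and ranged from -0.07 to 0.06 for it and from -0.01 to 0.20 for Myh14 probe set 4741036 without 1 array. Over all genes, departing probe sets after Cugbp1 siRNA numbered 3306 (50th percentile), 671 (no filter), 2004 (2 groups) and 11709 (diffSplice), after Mbnl1 siRNA 2689 (no filter) and 17155 (diffSplice), and between the siRNAs 15, 0, 25 and 554. Without 1 array they lay at 1594 to 6474, 3208 to 12631 and 12 to 34. Probe sets called numbered 29762 (no filter) and 31644 (2 groups) after Cugbp1 siRNA and 1316 (no filter) between the siRNAs, and 23714 to 46159, 35216 to 75111 and 910 to 3269 without 1 array. Genes called between the siRNAs numbered 639 without a filter, and without 1 array genes called lay at 3485 to 5516, 3888 to 6022 and 618 to 1162.

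Same-numbered arrays did not deviate together (correlations between -0.10 and 0.12), so the numbers give no pairing. With the replicate number as a block, 1 member probe set departed from its gene after Cugbp1 siRNA. Without the block 2 did, beside 3.75% of all probe sets tested, and the member count is not read as a result of its own. In the other comparison, between the siRNAs, 20 probe sets of all genes departed with the block and 44 without it. The Myh10 change after Mbnl1 siRNA was 0.18 with the block (adjusted p = 0.0355).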
